A study of Mus musculus with 12 samples.

Results

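The 10 genes described here encode the endothelial nitric oxide (NO) synthase, proteins that hold this enzyme in check and enzymes that break down its natural inhibitor. The others encode proteins that make, recycle and regulate its cofactor tetrahydrobiopterin (BH4), and the main reductase of S-nitrosothiols. The 10 genes were taken by symbol from a fixed list. All 10 were found among the 24537 genes of the deposited liver table, and 9 of them reached 1 FPKM in 3 or more libraries and could be tested. Nos3 itself did not reach that level in any library and was too low to compare. FPKM relates the reads on a gene's exons to the length of those exons and to the library's total reads, so levels can be set side by side between genes.

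Liver RNA was sequenced from 12 male C57Bl/6J mice that were 6 weeks old at the start and housed singly. Con mice were fed ad libitum and caloric restriction (CR) mice received 30% less food than Con mice ate. There were 3 mice of each diet at day 25 and 3 at day 30. The authors state that CR mice were given a fortified form of the chow at a set hour each day. Diet formula and meal timing therefore cannot be told apart from restriction. The authors also state that mice were labeled with heavy water before sacrifice. Each library came from 1 mouse, and the labels name no genetic change or drug in any of the 4 groups. The question was whether the transcripts that set the supply of NO and of its cofactor differed between CR and Con mice, and whether the effect of CR differed between day 25 and day 30.

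NO synthases make NO from arginine and oxygen, and they need BH4 for this. When BH4 is scarce, the enzyme releases superoxide in place of NO, and methylated arginines such as asymmetric dimethylarginine (ADMA) block it by competing with arginine. In the liver, BH4 is also used by other enzymes, such as hydroxylases, while the endothelial synthase belongs mainly to the cells that line the sinusoids and vessels.

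Libraries had a depth of 15748818 to 23345615 reads (median 20296143), of which 78.1% to 84.3% lay on exons. The liver label fitted the hepatocyte markers, as albumin (Alb) had at least 25401 FPKM in every library. Among the 10593 genes tested, more were lower than higher under CR with FPKM as deposited, with 37.5% of the calls higher at day 25 and 33.7% at day 30. This split depended on the scaling between libraries, because with median-ratio scaling 50.03% of the calls were higher at day 25 and 51.3% at day 30. The median log2 fold change of all genes tested was -0.039 at day 25 and -0.068 at day 30 as deposited.

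The levels of the 10 genes spanned a wide range in liver. The mean FPKM over the 12 libraries was 230.1 for Adh5, 201.1 for Qdpr, 110.0 for Gchfr, 61.0 for Gch1, 36.1 for Ddah1, 19.0 for Pts, 7.81 for Nostrin, 6.79 for Nosip, 1.00 for Ddah2 and 0.655 for Nos3. In this order, the library ranges of Adh5 and Qdpr overlapped, and so did those of Nostrin and Nosip and those of Ddah2 and Nos3. All the other neighbours were apart in every library. Adh5, Qdpr, Gchfr and Gch1 thus had the highest means, and the synthase had the lowest mean of the 10 genes. Qdpr and Adh5 lay at the 97.4th and 97.7th percentiles of mean FPKM among the genes tested.

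**Figure D1:**
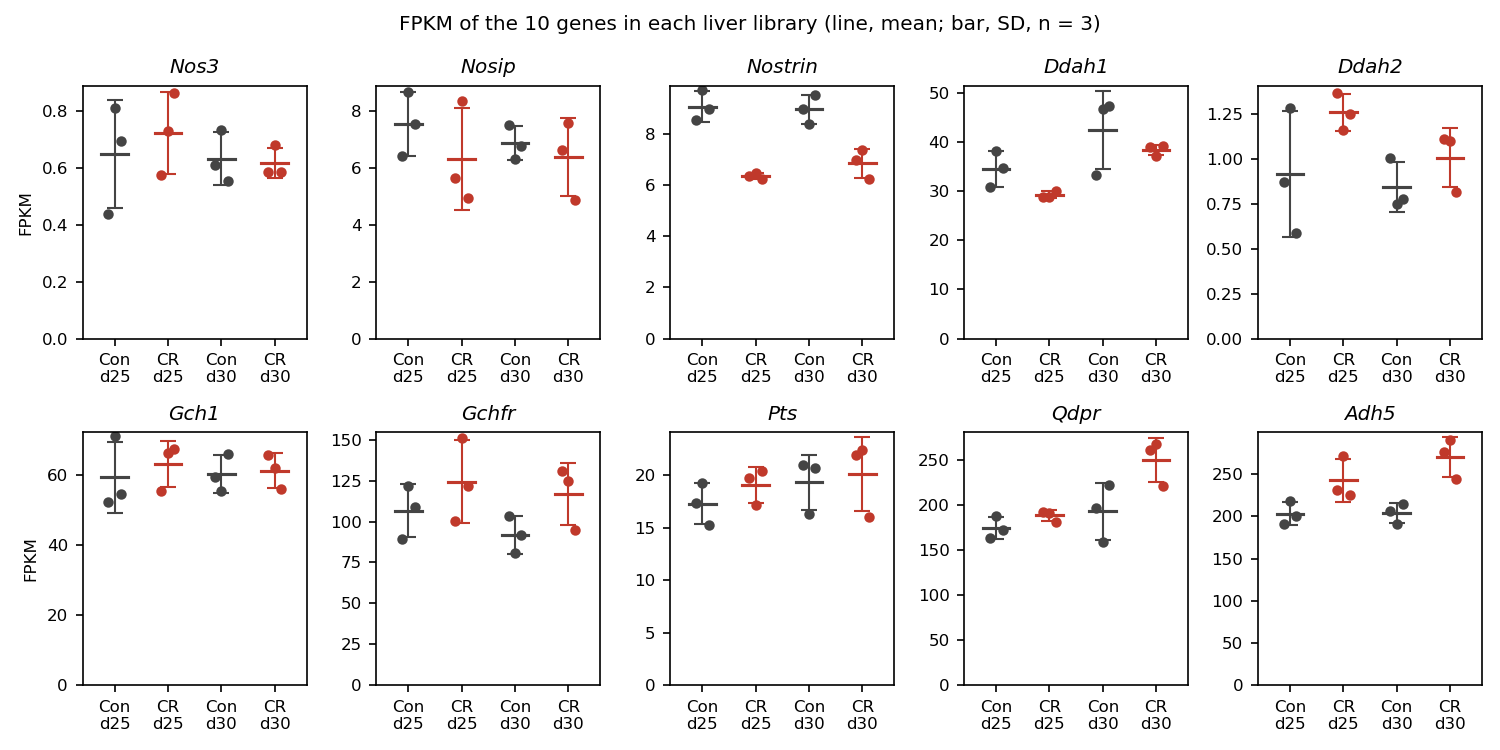
FPKM (y axis, linear and from 0, a separate scale in each panel) of the 10 genes in each liver library by diet and day (x axis, d25 and d30 for day 25 and day 30), with points for mice, a line for the mean and a bar for the SD (n = 3). Nostrin was lower and Adh5 higher in all 3 CR mice than in all 3 Con mice at both days, and Nos3 stayed between 0.438 and 0.862 FPKM.

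Nostrin fell under CR at both days, and it alone of the 9 tested genes passed the test as lower in these comparisons. Adh5 and Qdpr rose at day 30, and Gchfr joined them over both days. The transcripts of the enzymes that start BH4 synthesis, Gch1 and Pts, did not pass the test at either day, nor did Nosip, Ddah1 or Ddah2. At day 25, 1 of the 9 genes was lower (9.34% of all genes tested were lower) and 0 were higher (5.6% of all genes tested were higher) at an adjusted p under 0.1, by limma after Benjamini-Hochberg correction. Before adjustment, 2 of the 9 genes had a p under 0.05 at day 25, as did 24.9% of all genes tested. At day 30, 1 of the 9 genes was lower (16.4% of all genes tested) and 2 were higher (8.33% of all genes tested). Over both days, with day as a covariate, 1 was lower (26.1% of all genes tested) and 3 were higher (14.5% of all genes tested). Read against these shares, the counts of higher genes at day 30 and over both days were above the background by fewer than 2 genes, and no test set the group against other genes.

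None of these changes was large. With the additional demand of a change by 2-fold or more, 0 of the 9 genes passed at day 25, at day 30 or over both days, against 1.48%, 2.21% and 1.66% of all genes tested. The largest absolute log2 fold change among the 9 genes was 0.45, for Nostrin at day 25. The median log2 fold change of the 9 genes was 0.11 at day 25 and 0.047 at day 30.

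**Figure D2:**
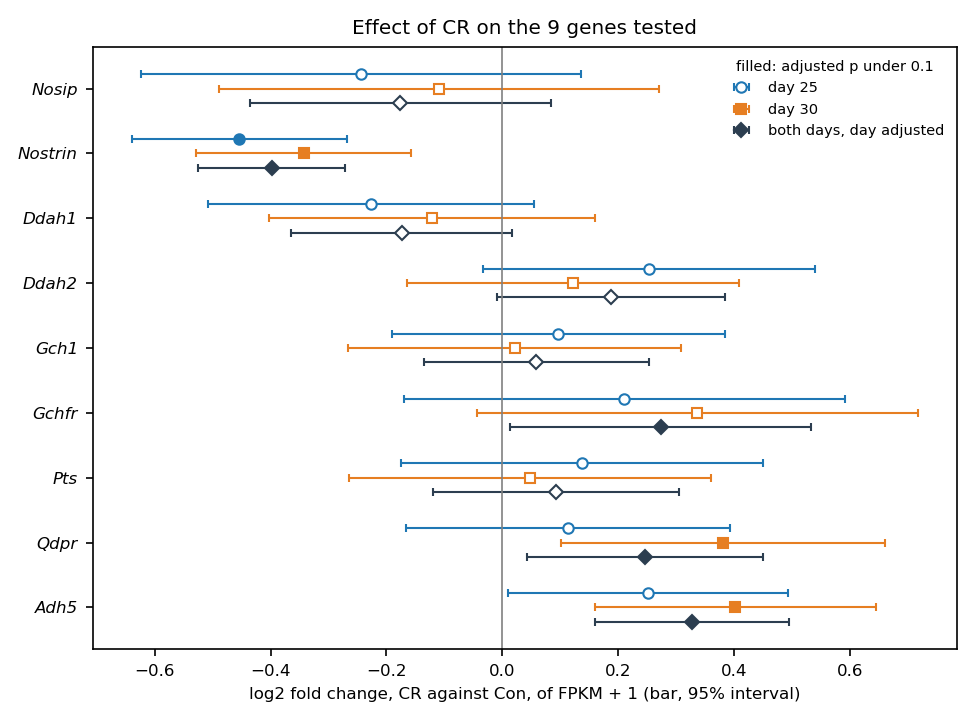
Log2 fold change of FPKM + 1 for CR against Con (x axis) for the 9 tested genes (y axis) at day 25, at day 30 and over both days, with bars for the 95% interval and filled symbols for an adjusted p under 0.1 from limma. Nostrin lies below 0 in all 3 comparisons with values of -0.45, -0.34 and -0.40, and Adh5 reaches 0.40 at day 30.

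The promoters of the 3 genes that passed within a day are shown so that the sequences at their starts can be compared. They are windows of 300 bases, 250 before and 50 after a start site, taken from RefSeq on GRCm38.p6 (mm10), with 9 of the 10 genes in that table. Capitals mark matches, on either strand, to 3 motifs: the GC box, searched as GGGCGG, the box named for its letters CCAAT, and the TATA box, searched as TATAAA. Adh5 has 2 annotated starts, and the first of them is the start of the deposited transcript. The end of the window at this upstream start was found in 0 of 7 GENCODE transcripts of Adh5. That of the window at the downstream start was found in 3 of 7.
Nostrin, chr2:69135550-69135849, plus strand: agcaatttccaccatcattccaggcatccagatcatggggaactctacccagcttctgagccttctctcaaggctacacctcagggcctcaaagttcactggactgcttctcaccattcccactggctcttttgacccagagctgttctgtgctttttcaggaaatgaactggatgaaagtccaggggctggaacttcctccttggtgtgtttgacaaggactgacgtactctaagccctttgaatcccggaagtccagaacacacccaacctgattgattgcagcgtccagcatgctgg
Qdpr, chr5:45450180-45450479, minus strand: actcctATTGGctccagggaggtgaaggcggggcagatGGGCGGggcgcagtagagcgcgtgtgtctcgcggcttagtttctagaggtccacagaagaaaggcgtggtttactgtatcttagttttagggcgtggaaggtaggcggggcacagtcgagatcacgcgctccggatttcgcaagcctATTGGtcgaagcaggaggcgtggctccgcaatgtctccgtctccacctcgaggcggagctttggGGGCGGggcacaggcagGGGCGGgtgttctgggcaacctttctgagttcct
Adh5 upstream start, chr3:138436950-138437249, plus strand: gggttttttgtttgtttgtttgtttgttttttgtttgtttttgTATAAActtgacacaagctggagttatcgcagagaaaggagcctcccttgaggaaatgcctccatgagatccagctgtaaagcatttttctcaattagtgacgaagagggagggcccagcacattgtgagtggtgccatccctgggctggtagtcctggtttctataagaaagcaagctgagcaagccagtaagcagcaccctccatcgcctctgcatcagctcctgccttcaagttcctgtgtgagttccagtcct
Adh5 downstream start, chr3:138442843-138443142, plus strand: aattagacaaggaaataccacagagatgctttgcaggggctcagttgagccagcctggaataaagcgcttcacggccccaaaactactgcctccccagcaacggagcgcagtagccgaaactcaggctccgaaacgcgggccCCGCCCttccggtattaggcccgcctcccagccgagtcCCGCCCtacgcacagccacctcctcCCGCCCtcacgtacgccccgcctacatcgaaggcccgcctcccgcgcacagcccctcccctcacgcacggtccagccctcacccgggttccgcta
The Qdpr window held 3 GC boxes and 2 CCAAT boxes at a GC content of 60.7%. The downstream Adh5 window held 3 GC boxes at 65% GC. The upstream one held 1 match to TATAAA, which began at -207 from the start site, at 47% GC. The Nostrin window had 51% GC and matched none of these motifs. No window matched the E-box CACGTG or the core TGACNNNGC of the antioxidant response element, no matches overlapped, and the median GC content of all 32851 promoters was 52.7%. Among all promoters, GGGCGG was found in 35.7%, CCAAT in 37.4%, TATAAA in 13.6%, CACGTG in 7.15% and TGACNNNGC in 12.4%. A match describes the letters only.

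Nos3 encodes the endothelial NO synthase (NM_008713, chromosome 5, 24364819 to 24384474, plus strand, mm10). In Con mice, Nos3 was at 0.438, 0.811 and 0.695 FPKM at day 25 and at 0.608, 0.733 and 0.552 FPKM at day 30. In CR mice, it was at 0.576, 0.729 and 0.862 FPKM at day 25 and at 0.586, 0.678 and 0.586 FPKM at day 30. The groups overlapped at both days and the diets had nearly the same mean, 0.640 ± 0.135 FPKM in Con and 0.670 ± 0.113 FPKM in CR (SD, n = 6). Each library held only 33 to 71 Nos3 reads, so a moderate difference was not detectable at this depth. In a fit without the filter on low values, its log2 fold change was 0.067 at day 25 (limma, adjusted p = 0.763) and -0.012 at day 30 (adjusted p = 0.993). With voom on the reads recovered from the FPKM values, it was 0.18 at day 25 (adjusted p = 0.738 by limma) and -0.031 at day 30 (adjusted p = 0.948). Part of the Nos3 exons, 1040 bases in the GENCODE vM21 annotation, is shared with the antisense transcript Gm15587 and 294 bases with Atg9b on the opposite strand. The strand setting of the counting is not given in the sources used here, so reads of these genes cannot be told apart from those of Nos3.

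The other NO synthases were close to absent from these libraries. Nos2, the inducible synthase, had 0 reads in all 6 libraries of day 25. In a single library, a count of 0 allows up to 3 reads by counting error alone, and 6 such libraries together allow fewer per library. At day 30, Nos2 had 2, 3 and 4 reads in Con mice and 1, 0 and 2 reads in CR mice, at most 0.047 FPKM. Nos1, the neuronal synthase, had 5 reads in all 12 libraries together, all of them in Con mice. Neither gene could be compared between diets.

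Nostrin and Nosip encode proteins that bind the endothelial synthase and draw it away from the plasma membrane, which lowers its activity. Nostrin (NM_181547, chromosome 2, 69135800 to 69189329, plus strand) was the clearest difference among the 10 genes. In Con mice, Nostrin was at 8.53, 9.70 and 8.99 FPKM at day 25 and at 8.98, 8.39 and 9.52 FPKM at day 30. In CR mice, it was at 6.36, 6.46 and 6.23 FPKM at day 25 and at 6.97, 7.36 and 6.25 FPKM at day 30. Every CR mouse lay below every Con mouse, within each day and across days. At day 25, 18% of all genes tested had their 3 CR libraries all below their 3 Con libraries, and at day 30 this was 24.3%. No such share was computed across days. At day 25, Nostrin fell by 0.45 on the log2 scale (standard error, SE, 0.086, limma, adjusted p = 0.00765) and by 0.34 at day 30 (SE 0.086, adjusted p = 0.0186). Over both days it fell by 0.40 (95% interval -0.53 to -0.27, limma, adjusted p = 3.4e-04), a change of -24.1% in FPKM + 1. The reads behind these values numbered 182 to 384 per library.

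Nosip (NM_001163684, chromosome 7, 45062429 to 45078503, plus strand) varied more between mice of 1 group than between diets. It was at 6.45, 8.69 and 7.56 FPKM in Con mice and at 5.67, 8.37 and 4.95 FPKM in CR mice at day 25. At day 30, it was at 7.53, 6.34 and 6.78 FPKM in Con mice and at 6.66, 7.61 and 4.89 FPKM in CR mice. The groups overlapped at both days. The log2 fold change of Nosip over both days was -0.18 with a 95% interval of -0.44 to 0.083 (limma, adjusted p = 0.281). The exons of Nosip share 103 bases with Prrg2 on the opposite strand.

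Because Nos3 and Nostrin are best known from endothelial cells, the endothelial markers were read in the same libraries. In bulk liver, fewer cells of a type and less RNA per cell cannot be told apart. Of 12 tested endothelial markers (13 were listed, and Vwf was too low), 1 was higher and 0 lower under CR at day 25, 4 were higher and 0 lower at day 30, and 5 were higher and 0 lower over both days. With median-ratio scaling 2 were higher at day 25, 7 at day 30 and 6 over both days, and with quantile normalization 1, 7 and 7 were, with 0 lower in each case. The 5 genes as deposited were Stab2, Fcgr2b, Clec4g, Stab1 and Eng, which mark the lining cells of the sinusoids or endothelium in general. Of all genes tested, 5.6% were higher at day 25, 8.33% at day 30 and 14.5% over both days as deposited. With median-ratio scaling, 855, 1326 and 2166 of the 10593 genes tested were higher at day 25, at day 30 and over both days. With quantile normalization, the counts were 758, 1252 and 2040. The summed FPKM of the list was 60.5 to 89.6 in Con and 78.9 to 90.5 in CR mice at day 25, and 61.1 to 67.3 in Con and 79.4 to 88.5 in CR mice at day 30. No defining marker was at 0, as Pecam1 lay between 2.24 and 4.42 FPKM and Cdh5 between 2.57 and 3.58 FPKM. Nostrin passed the test as lower under CR at both days, and 0 of the 12 endothelial markers did. At day 25, Lyve1 (-0.25), Emcn (-0.16), Cdh5 (-0.077) and Pecam1 (-0.042) had log2 fold changes below 0 without passing. The other tested endothelial markers were above 0 at that day. The part of cell composition in the Nostrin result was not tested.

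Markers of other liver cells also moved. Of all genes tested, 5.6% were higher and 9.34% lower at day 25, and 8.33% were higher and 16.4% lower at day 30. Of 8 Kupffer and macrophage markers, 4 were lower and 0 higher under CR at day 25, and 1 was higher and 0 lower at day 30. Of 7 tested stellate and fibroblast markers, 1 was higher at day 25 and 3 at day 30, and 0 were lower at either day. Among the 3 of day 30, Des reached 1 FPKM in 3 libraries, all from CR mice, so it was tested only because of its CR libraries. Of 5 hepatocyte markers in the table, 0 passed at day 25, and Alb was higher and Apob lower at day 30, where the call of Apob held in 7 of 21 alternative fits. None of 2 tested cholangiocyte markers passed at either day, no lymphocyte marker could be tested, and of 5 red cell markers only Alas2 passed, with lower values under CR at both days.

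**Figure D3:**
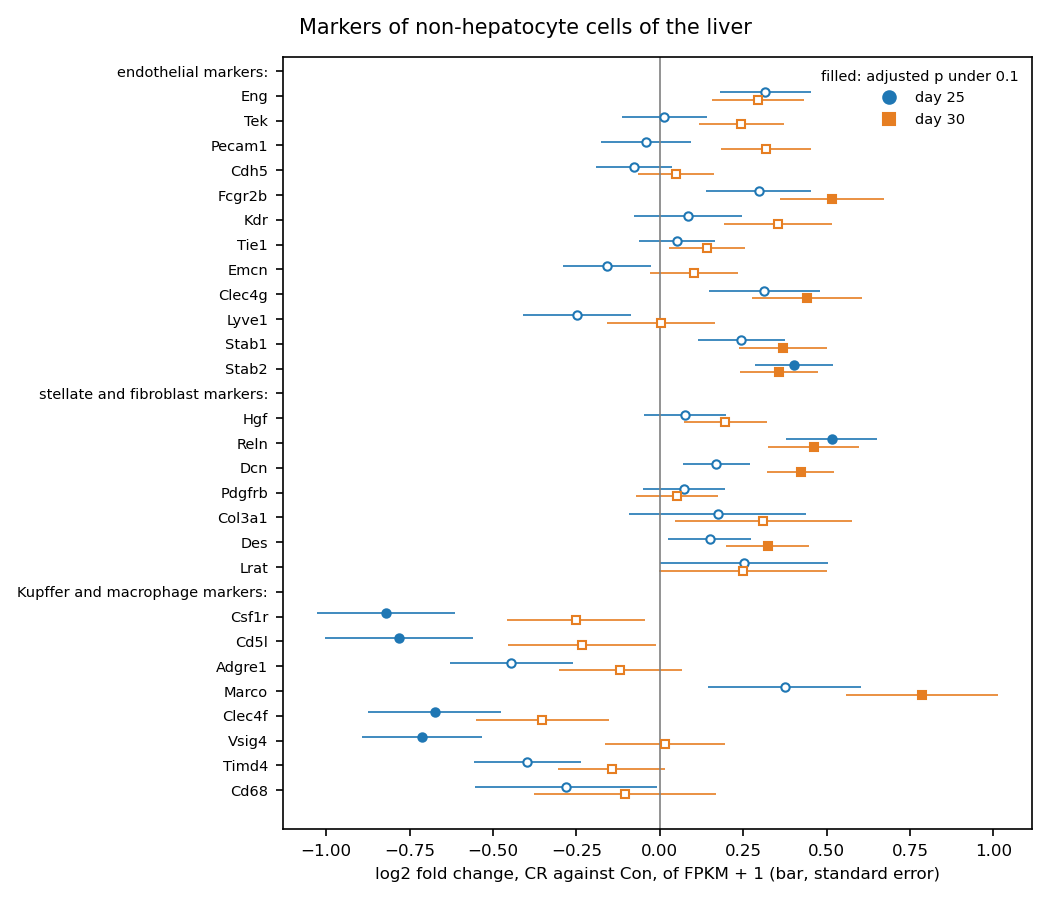
Log2 fold change of FPKM + 1 for CR against Con (x axis) for the tested markers of endothelial, stellate and fibroblast, and Kupffer and macrophage cells (y axis) at day 25 (circles) and day 30 (squares), with bars for the standard error and filled symbols for an adjusted p under 0.1 from limma. All 5 endothelial calls within a day lie above 0, and the 4 Kupffer and macrophage calls of day 25 lie below 0.

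Ddah1 and Ddah2 encode dimethylarginine dimethylaminohydrolases, which break down ADMA and so relieve the synthases of their natural inhibitor. Ddah1 (NM_026993, chromosome 3, 145758692 to 145894277, plus strand) was the main form in liver, at 21.2 to 62.3 times the FPKM of Ddah2 within a library. It was at 30.8, 38.1 and 34.6 FPKM in Con mice and at 28.8, 28.8 and 30.0 FPKM in CR mice at day 25. At day 30, Ddah1 was at 33.2, 46.6 and 47.2 FPKM in Con mice and at 38.9, 37.2 and 39.1 FPKM in CR mice. The CR mice lay below all Con mice at day 25, as was so for 18% of all genes tested, but between them at day 30. The log2 fold change was -0.23 at day 25 (limma, adjusted p = 0.304) and -0.12 at day 30 (adjusted p = 0.550), and over both days it was -0.17 with a 95% interval of -0.37 to 0.017 (adjusted p = 0.151). Without the Con mouse at 33.2 FPKM, Ddah1 passed over both days with a log2 fold change of -0.25 (limma, adjusted p = 0.0165).

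Ddah2 (NM_016765, chromosome 17, 35059035 to 35062099, plus strand) was only just above the limit for testing, with 13 to 38 reads per library. It was at 0.868, 1.28 and 0.587 FPKM in Con mice and at 1.36, 1.16 and 1.25 FPKM in CR mice at day 25. At day 30, it was at 1.00, 0.749 and 0.776 FPKM in Con mice and at 1.11, 1.10 and 0.814 FPKM in CR mice. It had an FPKM of at least 1 in 7 libraries, of which 5 were from CR mice. The filter asked for 3, so it was tested only because of its CR libraries. The log2 fold change was 0.25 at day 25 (limma, adjusted p = 0.256) and 0.12 at day 30 (adjusted p = 0.555), and the groups overlapped at both days. Without Con day 25 replicate 2, Ddah2 passed at day 25 with 0.39 (limma, adjusted p = 0.0880) and over both days with 0.24 (adjusted p = 0.0539). Over both days it also passed without the Con mouse at 1.00 FPKM (0.22, limma, adjusted p = 0.0996) and without CR day 30 replicate 3 (0.23, adjusted p = 0.0880).

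BH4 is made from GTP by the successive action of GTP cyclohydrolase (Gch1), 6-pyruvoyltetrahydropterin synthase (Pts) and sepiapterin reductase. Gch1 (NM_008102, chromosome 14, 47153895 to 47189402, minus strand) is the rate-limiting enzyme. It was at 52.3, 71.1 and 54.6 FPKM in Con mice and at 55.5, 66.4 and 67.6 FPKM in CR mice at day 25. At day 30, Gch1 was at 59.5, 55.5 and 66.1 FPKM in Con mice and at 65.8, 62.0 and 56.0 FPKM in CR mice. The groups overlapped almost fully. The log2 fold change over both days was 0.059 with a 95% interval of -0.14 to 0.25 (limma, adjusted p = 0.647), and at day 30 the value of 0.021 turned negative with TPM scaling or quantile normalization.

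Pts (NM_011220, chromosome 9, 50521617 to 50528641, minus strand) was at 17.4, 19.3 and 15.3 FPKM in Con mice and at 19.8, 17.2 and 20.4 FPKM in CR mice at day 25. At day 30, it was at 21.0, 16.3 and 20.8 FPKM in Con mice and at 21.9, 22.4 and 16.0 FPKM in CR mice. These ranges overlapped at both days, and the log2 fold change over both days was 0.093 with a 95% interval of -0.12 to 0.30 (limma, adjusted p = 0.499).

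Gchfr encodes the feedback regulatory protein of GTP cyclohydrolase, which passes on inhibition by BH4 and stimulation by phenylalanine to the enzyme. Gchfr (NM_177157, chromosome 2, 119167788 to 119172389, plus strand) was at 89.3, 121.6 and 109.2 FPKM in Con mice and at 100.5, 151.0 and 121.6 FPKM in CR mice at day 25. At day 30, it was at 103.6, 80.5 and 91.7 FPKM in Con mice and at 130.7, 124.8 and 95.1 FPKM in CR mice. At day 30, 2 of the 3 CR mice lay above all Con mice, at day 25 only 1 did, and the groups overlapped at both days. The log2 fold change of Gchfr was 0.21 at day 25 (limma, adjusted p = 0.496) and 0.34 at day 30 (adjusted p = 0.209). Over both days Gchfr rose by 0.27 with a 95% interval of 0.014 to 0.53 (limma, adjusted p = 0.0996), just inside the threshold. Leaving out 1 mouse ended this call in 8 of 12 cases, with an adjusted p between 0.114 and 0.200. These were Con day 25 replicates 1 and 3, CR day 25 replicates 2 and 3, CR day 30 replicates 1 and 2 and the Con mice at 80.5 and 91.7 FPKM of day 30. Within a library, Gchfr was at 1.39 to 2.28 times the FPKM of Gch1.

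Qdpr encodes quinoid dihydropteridine reductase, which returns the oxidized cofactor to BH4 after each round of use. Qdpr (NM_024236, chromosome 5, 45434032 to 45450229, minus strand) was at 162.7, 187.7 and 172.3 FPKM in Con mice and at 192.3, 191.4 and 181.2 FPKM in CR mice at day 25. At day 30, it was at 196.7, 159.0 and 221.9 FPKM in Con mice and at 260.4, 267.0 and 221.1 FPKM in CR mice. At day 30, CR replicates 1 and 2 stood above all Con mice, and replicate 3 lay just under the highest Con mouse. Qdpr rose by 0.38 on the log2 scale at day 30 (SE 0.13, limma, adjusted p = 0.0628) and by 0.25 over both days (adjusted p = 0.0619), while at day 25 the value was 0.11 (adjusted p = 0.634). The call at day 30 was lost without CR replicate 1 (limma, adjusted p = 0.179), CR replicate 2 (adjusted p = 0.160), the Con mouse at 159.0 FPKM (0.25, adjusted p = 0.218) or the Con mouse at 196.7 FPKM (adjusted p = 0.110). The call over both days was lost without any of these 4 mice or without Con day 25 replicate 1, with an adjusted p between 0.1005 and 0.129 from limma. The exons of Qdpr share 332 bases with the antisense transcript Gm42413.

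Ratios of levels within a library do not depend on the scaling between libraries. The ratio of Qdpr to Gch1 in FPKM was 3.95 to 4.31 in CR mice at day 30, and 2.86 to 3.36 in Con mice at day 30. At day 25 it was 2.68 to 3.46 in CR mice and 2.64 to 3.16 in Con mice. The 3 CR mice of day 30 had the highest ratios of all 12 mice. This ratio was looked at after the values were seen, and it was not tested.

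Adh5 encodes alcohol dehydrogenase class III, which as S-nitrosoglutathione reductase removes the main S-nitrosothiol of the cell. Adh5 (NM_001288578, chromosome 3, 138437200 to 138455499, plus strand) was at 191.2, 218.4 and 200.3 FPKM in Con mice and at 230.8, 271.6 and 225.6 FPKM in CR mice at day 25. At day 30, it was at 206.5, 191.2 and 214.4 FPKM in Con mice and at 275.9, 291.0 and 244.4 FPKM in CR mice. All CR mice lay above all Con mice, within each day and across days. Of all genes tested, 10.2% had their 3 CR libraries all above their 3 Con libraries at day 25 and 12.1% at day 30. The share of all genes set apart across days was not computed. Adh5 rose by 0.40 on the log2 scale at day 30 (SE 0.11, limma, adjusted p = 0.0286) and by 0.33 over both days (95% interval 0.16 to 0.49, adjusted p = 0.00705), a change of 25.4% in FPKM + 1. At day 25 the log2 fold change was 0.25 and did not pass (limma, adjusted p = 0.183), although with median-ratio scaling it did (0.30, adjusted p = 0.0706).

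The effect of CR did not pass a test of difference between the days for any of the 9 genes. The adjusted p was 0.9995 for each of them in limma, 0 had an unadjusted p under 0.05 (3.46% of all genes tested had one), and voom on the recovered reads also gave 0 calls. Of all genes tested, 0.00944% passed this test. The largest difference was that of Qdpr, 0.27 on the log2 scale with a 95% interval of -0.13 to 0.66, which includes differences in either direction. From day 25 to day 30 within CR mice, 0 of the 9 genes passed in limma (0.321% of all genes tested) or with voom, and 2 had an unadjusted p under 0.05, against 8.66% of all genes tested. These were Qdpr (0.40, limma, adjusted p = 0.349) and Ddah1 (0.38, adjusted p = 0.391). Within Con mice, 0 of the 9 passed in limma (0% of all genes tested) or with voom, and 0 had an unadjusted p under 0.05 (7.22% of all genes tested had one).

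The remaining genes of BH4 metabolism were read from lists written by symbol. Of 8 makers and recyclers of BH4, all tested, 0 passed at day 25 and 0 were lower in any comparison. At day 30, 1 was higher (8.33% of all genes tested), and over both days 3 were (14.5% of all genes tested). The third gene beside Qdpr and Gchfr was Spr, sepiapterin reductase, the last enzyme of BH4 synthesis, which was at 48.9 ± 5.80 FPKM in Con and 57.3 ± 5.80 FPKM in CR mice (SD, n = 6) and rose by 0.23 over both days (limma, adjusted p = 0.0774). The median log2 fold change of the list was 0.10 at day 25 and 0.15 at day 30. The number higher over both days was 4 with median-ratio scaling and 1 with quantile normalization. Of the 10593 genes tested, 2166 and 2040 were higher over both days with these scalings.

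Outside NO synthesis, BH4 serves several hydroxylases, of which 1 of 4 listed could be tested. Agmo, alkylglycerol monooxygenase, was at 24.1 ± 3.11 FPKM in Con and 29.3 ± 2.85 FPKM in CR mice (SD, n = 6). It rose by 0.34 at day 25 (limma, adjusted p = 0.0657) and by 0.28 over both days (adjusted p = 0.0125). The other 3 listed hydroxylases, Th, Tph1 and Tph2, were too low to test.

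Of 13 genes of the NO synthases and their control, 9 could be tested, with 1 higher and 1 lower at day 25, at day 30 and over both days. The gene that was lower was Nostrin each time, and the gene that was higher was Por. Of all genes tested, 5.6% were higher and 9.34% lower at day 25, and 8.33% were higher and 16.4% lower at day 30. Over both days, 14.5% of all genes tested were higher and 26.1% lower. Por, cytochrome P450 reductase, which resembles the electron-carrying domain of the NO synthases and mainly serves the cytochromes P450, rose by 1.14 at day 25 (limma, adjusted p = 0.00608) and by 1.65 at day 30 (adjusted p = 4.1e-04). Caveolin (Cav1), heat shock protein 90 (Hsp90aa1 and Hsp90ab1) and Akt1, all partners of the endothelial synthase, did not pass at either day.

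Of 7 tested makers and breakers of methylated arginines, 0 passed at either day, and over both days Carm1, an arginine methyltransferase, fell by 0.16 (limma, adjusted p = 0.0590). With median-ratio scaling or quantile normalization, this list had 1 gene higher and 0 lower over both days in place of 0 and 1. Of all genes tested as deposited, 5.6% were higher and 9.34% lower at day 25, and 8.33% and 16.4% at day 30. Over both days, 14.5% were higher and 26.1% lower. Of the 10593 genes tested, 2166 were higher and 2076 lower over both days with median-ratio scaling, and 2040 and 1994 with quantile normalization. Of 5 tested genes of arginine supply and competition, Ass1, argininosuccinate synthase of the urea cycle and of arginine renewal, rose by 0.58 at day 30 (limma, adjusted p = 0.0745) and by 0.44 over both days (adjusted p = 0.0359). The others, among them arginase (Arg1), did not pass in any comparison as deposited. With median-ratio scaling, 2 of these 5 genes were higher over both days.

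Of 7 genes of S-nitrosothiol removal, 0 were higher and 2 lower at day 25, and 2 were higher and 2 lower at day 30 and over both days. With median-ratio scaling, 1 was higher and 2 lower at day 25, and 4 were higher and 2 lower over both days. Of the 10593 genes tested, that scaling gave 855 higher and 854 lower at day 25, and 2166 higher and 2076 lower over both days. As deposited, 5.6% of all genes tested were higher and 9.34% lower at day 25. The shares were 8.33% and 16.4% at day 30, and 14.5% and 26.1% over both days. Beside Adh5, Cbr1, a carbonyl reductase that also acts on S-nitrosoglutathione, rose by 0.67 at day 30 (limma, adjusted p = 0.0501). Gsr, glutathione reductase, fell by 0.40 at day 25 (limma, adjusted p = 0.0435) and by 0.69 at day 30 (adjusted p = 0.00194). Txnrd1, thioredoxin reductase, fell by 0.30 at day 25 (limma, adjusted p = 0.0773) and by 0.35 at day 30 (adjusted p = 0.0312). The median of the list was 0.060 at day 25 and 0.15 at day 30, and the calls went in both directions.

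Downstream of NO, 6 of 11 listed genes of the cyclic GMP arm could be tested. Pde9a, a phosphodiesterase that breaks down cyclic GMP, was at 7.40 ± 0.611 FPKM in Con and 3.14 ± 0.575 FPKM in CR mice (SD, n = 6). It fell by 0.92 on the log2 scale at day 25 (limma, adjusted p = 0.00135) and by 1.14 at day 30 (adjusted p = 1.6e-04). The subunits of the NO receptor guanylyl cyclase were low and near the limit for testing. Gucy1b3 was at 0.948 ± 0.219 FPKM in Con and 1.39 ± 0.0624 FPKM in CR mice at day 30 (SD, n = 3), a log2 fold change of 0.30 (limma, adjusted p = 0.0630). It reached 1 FPKM in 5 libraries, of which 4 were from CR mice, so it was tested only because of its CR libraries. Gucy1a3 had a log2 fold change of 0.19 over both days (limma, adjusted p = 0.0541) and reached 1 FPKM in 8 libraries, of which 5 were from CR mice.

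**Figure D4:**
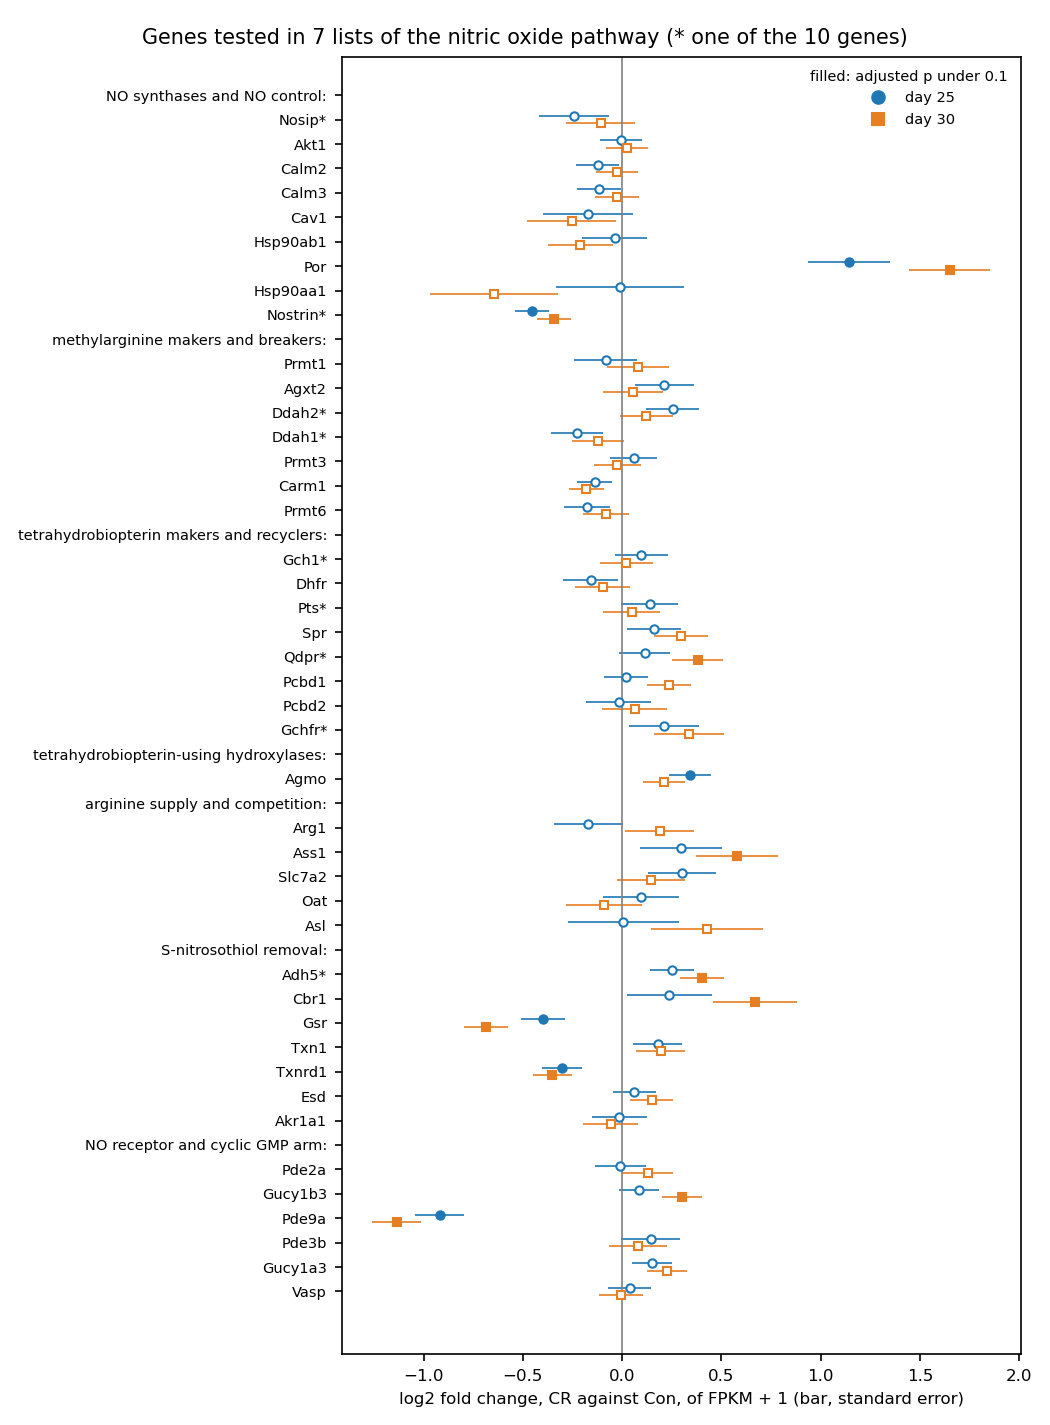
Log2 fold change of FPKM + 1 for CR against Con (x axis) at day 25 (circles) and day 30 (squares) for the genes tested in the 7 pathway lists (y axis, with an asterisk for the 9 tested members of the group of 10), with bars for the standard error and filled symbols for an adjusted p under 0.1 from limma. Por (1.14 and 1.65) and Pde9a (-0.92 and -1.14) lie farthest from 0, and the tested members lie between -0.45 and 0.40.

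Among themselves the 9 tested genes varied together only in part. Over the 12 libraries, which share the diet groups, Pearson's r of log2(FPKM + 1) was 0.813 between Qdpr and Adh5, 0.733 between Gchfr and Adh5, and 0.663 between Gch1 and Gchfr. The genes with opposite changes, Nostrin and Adh5, had an r of -0.610. Nosip and Qdpr, with an r of 0.044, were almost unrelated. These values describe the libraries, carry the diet effect within them and were not tested.

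The 3 genes whose pattern over the 12 libraries was most like each member were looked up among all genes tested, as a description with no test. For Nostrin they were Elp2 (r of 0.969), Commd7 (0.964) and Hps1 (0.964), and for Nosip they were Flad1 (0.949), 0610010K14Rik (0.944) and Cops6 (0.927). For Ddah1 they were Ap1ar (0.893), Arhgef16 (0.887) and Cyp2f2 (0.880), and for Ddah2 they were Csrp2 (0.894), Coq10a (0.888) and Foxo4 (0.883). None of the genes found in this way belonged to the 7 pathway lists. For Gch1 they were Vrk3 (0.911), Lta4h (0.887) and Psme2 (0.883), and for Gchfr they were Apoc4 (0.987), Asgr1 (0.972) and Etfb (0.970), of which Apoc4 and Asgr1 are genes of hepatocytes. For Pts they were Tsen15 (0.926), Armc7 (0.891) and Fam131a (0.842), and for Qdpr they were Gstm7 (0.950), D130043K22Rik (0.920) and Mdh1 (0.918). For Adh5 they were Cyb5a (0.956), Ndufs4 (0.955) and Vdac1 (0.951), of which the last 2 encode mitochondrial proteins.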

How the data were processed

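The RNA-Seq data cover livers of 12 male mice, 3 per diet and day. The authors mapped 100-base paired-end reads of a single lane to mm10 with BWA, and CASAVA 1.8.2, FastQC and DESeq2 are named in the submitters' processing notes. The authors deposited FPKM values with the exon length of each gene in bases as other information, and the file header records HOMER, reads on exons, 1 RefSeq transcript per gene and no scaling between libraries. FPKM are not counts. Steps of low FPKM values gave whole reads for 100% of 1500 low values per library (within 0.1 read), and from them the depth. Precision is low for genes with few reads, and counting limits cover counting error only.

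Values were analyzed as log2(FPKM + 1), which understates the change of low genes, with limma 3.58.1 in R 4.3.3 for genes that reached 1 FPKM in 3 or more libraries. A model of the 4 groups with a trend on expression gave the effects at each day, and a model of day and diet gave the effect over both days. A gene passed at a Benjamini-Hochberg adjusted p under 0.1 over all genes tested, and a stricter rule added a 2-fold minimum (1 on the log2 scale). Tests were 2-sided. The model was tested on simulated data with changes of 2-fold or more. These were larger than those of the genes described here, so the simulation does not cover changes of their size. Python 3.11.15 with matplotlib 3.10.9, numpy 2.4.6 and pandas 2.3.3 served for tables and plots.

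Members and gene lists were chosen with earlier results of these data known. Named genes were the 10 members, Nos1 and Nos2, listed pathway genes that passed, and for each tested member the 3 genes with the highest Pearson correlation; other genes are named as members of the lists or markers. Some items are not reported here. The columns of Con mice at day 30 are assigned to their group but not to single samples. Replicate numbers come from the labels and belong to different mice. At day 25, deviations of same-numbered Con and CR mice correlated with an r of 0.368, 0.306 and 0.106 (mean of different numbers -0.131), so the number was used as a block in an alternative. Further alternatives changed the filter, the pseudocount, the moderation, the scaling, the groups fitted, voom on the recovered reads, the call rule and leaving out each mouse.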

Additional observations from a re-analysis of the deposited data

How the results depend on the processing

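Of 564 alternative values of the 9 tested genes, 527 kept their direction and their side of the threshold, 21 lost a call, 8 gained one and 8 changed sign, and the cause was not tested. Apart from the 2-fold minimum, which no member met, Nostrin passed in every alternative run at either day and over both days, and Adh5 at day 30 and over both days. The number of the 9 genes that passed was 1 at day 25, 3 at day 30 and 4 over both days. At day 25 it was 2 with median-ratio scaling, which added Adh5, and 1 to 2 when each mouse was left out. The number became 0 in all 3 comparisons with the 2-fold minimum. Over both days it was 2 at an adjusted p under 0.05, and 2 without Con day 25 replicate 1, CR day 30 replicate 1 or 2, or the Con mouse in column Con11 of day 30. Leaving out each mouse gave 2 to 3 genes at day 30 and 2 to 5 over both days. Over both days, Qdpr lost its call with quantile normalization (adjusted p = 0.105 from limma). Gchfr lost its call over both days without the filter (limma, adjusted p = 0.152) and with quantile normalization (adjusted p = 0.141). Ddah2 gained a call over both days with median-ratio scaling (limma, adjusted p = 0.0658) and quantile normalization (adjusted p = 0.0314), but it was tested only because of its CR libraries. At day 30, Qdpr lost its call when only the 2 groups compared entered the fit (adjusted p = 0.126 from limma).

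The log2 fold changes that changed sign were all of day 30 and small. Leaving out each mouse gave -0.23 (without CR replicate 2) to 0.045 (without CR replicate 3) for Nosip, -0.037 (without the mouse in column Con11) to 0.088 for Gch1 and -0.065 (without the mouse in column Con11) to 0.20 for Pts. Gch1 was also at -0.031 without CR replicate 1, -0.012 with TPM scaling and -0.016 with quantile normalization. Pts was also at -0.019 and -0.034 without CR replicate 1 or 2.

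Among the listed pathway genes, Por and Pde9a passed in every alternative fit at both days, and Gsr did at day 30, but Pde9a at day 25 and Gsr at day 30 did not meet the 2-fold minimum. Most other single-day calls were lost in some alternatives, mainly when 1 mouse was left out. The calls held in 16 of 22 alternatives for Agmo, 20 of 22 for Gsr and 17 of 22 for Txnrd1 at day 25, and in 15 of 21 for Ass1, 18 of 21 for Cbr1, 19 of 21 for Txnrd1 and 14 of 20 for Gucy1b3 at day 30. Over both days they held in 12 of 20 for Spr and for Carm1, 17 of 19 for Gucy1a3 and all 20 for Agmo, Ass1, Cbr1, Gsr and Txnrd1. Among the markers, the calls held in 17 of 22 for Stab2, 18 of 22 for Cd5l and for Clec4f and 16 of 22 for Alas2 at day 25, and in 7 of 21 for Apob, 14 of 21 for Clec4g, 15 of 21 for Stab1, 18 of 21 for Stab2, 19 of 21 for Fcgr2b and for Alb and 6 of 17 for Des at day 30.

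With the replicate block at day 25, 1 gene passed, as without it, and the block changed no call of the 9 genes (Nostrin adjusted p = 0.0217 from limma). No paired analysis was possible at day 30 because the labels do not tell the Con mice apart. Genes with few reads, Nos3 and Ddah2, are limited by depth. The counts of the pathway lists under other scalings and the ratio of Qdpr to Gch1 were added after seeing the data.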
